A study of Mus musculus with 6 samples.

Results

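The genes described here are 10 that encode folding chaperones and proteases of mitochondria: Hspd1, Hspe1, Hspa9, Trap1, Grpel1, Dnaja3, Lonp1, Clpp, Clpx and Afg3l2. They were chosen by name, as chaperones of the mitochondrial unfolded protein response and its proteases, with earlier results of these data known. Each matched exactly 1 of the 45808 rows of the deposited count table. The table holds 6 RNA-seq libraries of T cells from the spleens of C57BL/6 mice aged 2 months. The cells were activated in culture with antibodies to CD3 and CD28 together with IL-2. Wild-type cells gave 3 libraries and Drp1-/- (KO) cells gave 3. Drp1, encoded by Dnm1l, is the GTPase that constricts and divides mitochondria. How Drp1 was deleted, and in which cells of the mouse, is not given in the sources used here. The labels do not say whether the replicates came from different mice or cultures. The p-values therefore reflect only how these samples varied, and that variation may be technical.

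Most mitochondrial proteins are made in the cytosol and enter the organelle unfolded. In the matrix they are caught by the mitochondrial Hsp70, folded further by the chaperonin of Hsp60 rings and Hsp10 lids, and, where they fail to fold, degraded by ATP-driven proteases. When misfolded protein builds up, the mitochondrial unfolded protein response raises the genes of these chaperones and proteases through ATF5, ATF4 and CHOP. In T cells, activation is accompanied by growth of the mitochondrial mass.

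Total counts ran from 24738017 to 34730475 per library. No pair of libraries within a group agreed within sampling noise (chi-square per gene 2.56 to 13.6, scaled by library totals). Each was counted as a sample. Separate preparations of the same RNA can also exceed that noise, so this does not show that the samples are independent. Wild-type replicate 1 differed most from its group, with a chi-square per gene of 12.2 and 13.6 against the other wild-type libraries and 2.56 between those. Dnm1l was lower in each KO library than in any of wild type, at 117 to 123 CPM (counts scaled to a common library size) for wild type and 92.6 to 100.6 CPM for KO (log2 fold change -0.32 ± 0.05 SE, adjusted p = 0.000728, edgeR). A gene-level count includes exons that a deletion leaves in place. Xist, the RNA of the inactive X chromosome, had 0, 3 and 1 counts in the wild-type libraries and 16862, 12950 and 14744 in the KO libraries. The Y-linked genes Ddx3y, Eif2s3y, Kdm5d and Uty had at least 1064 counts in every library of both groups. Their raw counts summed over 3 libraries were lower in KO. Wild type and KO had 10125 and 7427 for Ddx3y and 16949 and 13588 for Eif2s3y. For Kdm5d the sums were 5777 and 5005, and for Uty 5817 and 3786. The Xist difference runs with genotype in all 6 libraries. Its part in any result below, and that of the Y-linked differences, cannot be told apart from that of genotype. All 10 members are autosomal. All 16 T cell markers were read in all libraries, with a summed level of 5517 to 5733 CPM for wild type and 4715 to 4866 CPM for KO, and 11 of them fell. Natural killer and gamma-delta T cell markers summed to 137 to 142 CPM for wild type and 209 to 229.9 CPM for KO, with 9 of 10 higher. B cell markers summed to 533 to 546 CPM and 464 to 484 CPM (3 of 10 lower, 1 higher). Platelet and erythroid markers summed to 7.96 to 10.5 CPM and 21.8 to 24.7 CPM (4 of 4 tested higher). Myeloid markers summed to 35.1 to 39.3 CPM and 30.2 to 33.1 CPM (2 of 6 tested higher, 3 lower), and S100a8, S100a9 and Xcr1 were at 0 counts. The part of these cell types in the results below was not tested. In bulk RNA a change in the number of cells of one type cannot be separated from a change of RNA per cell.

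The 10 genes did not move as a block. The ring subunit of the chaperonin, Hspd1, the matrix Hsp90 Trap1 and the peptidase Clpp rose by 1.34-fold to 1.73-fold, while the proteases Lonp1 and Afg3l2 fell to 0.762 and 0.668 of the wild-type level. Hspa9 and Grpel1 rose by about 11% (fold changes of 1.11 for both), and Hspe1, Dnaja3 and Clpx did not pass the test. All 10 passed the filter on low counts. Of them 5 rose, 2 fell and 3 did not pass at an adjusted p under 0.05 (edgeR quasi-likelihood test), beside 52.9% of all 14209 tested genes called (26.7% higher and 26.1% lower). The members' count is to be read against that background, in which most genes were called. The KO libraries did not overlap the wild-type libraries for 7 members (5 higher, 2 lower), and for 63.3% of all tested genes (32.5% higher, 30.8% lower). The median log2 fold change was 0.08 over the members and 0.01 over all tested genes, and without wild-type replicate 1 the median over the members was 0.14. When only library totals set the scale, 62.0% of all calls were higher against 50.6% with TMM factors, and the members still had 5 higher and 2 lower.

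**Figure D1:**
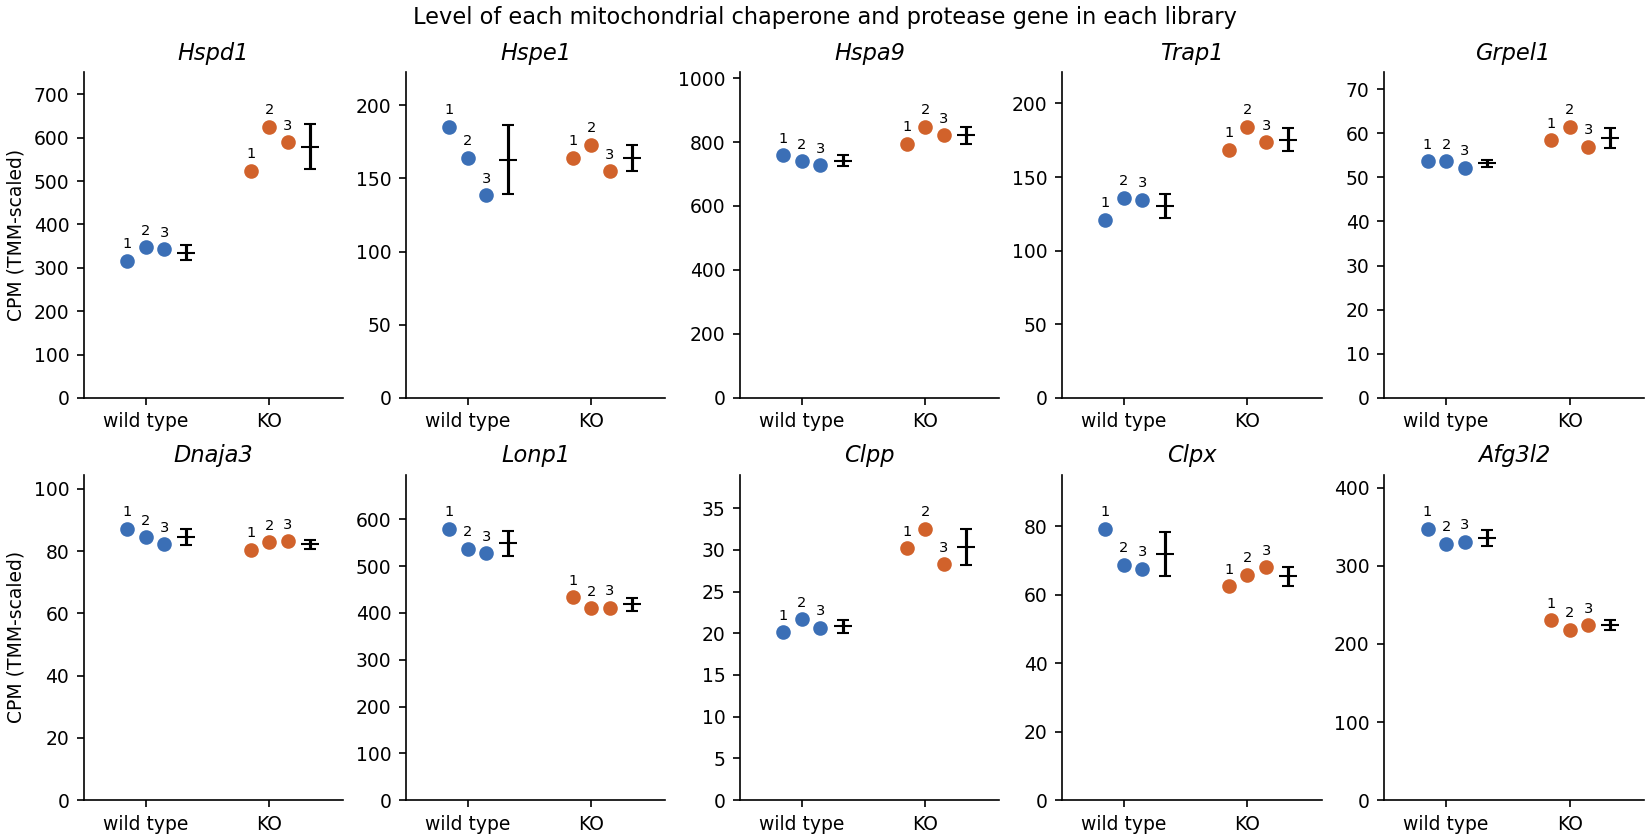
CPM scaled by TMM factors (y axis, from 0) of each of the 10 genes by genotype (x axis). Points are libraries, numbered by replicate, and black bars are the mean and SD of 3 libraries. Hspd1 lies at 316 to 347 CPM for wild type and 524 to 626 CPM for KO, Afg3l2 at 328 to 347 and 218 to 230.1 CPM, and the groups overlap for Hspe1, Dnaja3 and Clpx.

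As a share of all counts, the 6 chaperone genes together took 0.147% ± 0.00295 in wild type and 0.193% ± 0.00927 in KO (SD, n = 3 each). The 4 protease genes took 0.0951% ± 0.00210 and 0.0757% ± 0.00178. These shares moved in opposite directions, and the sum over all 10 went from 0.242% ± 0.00239 to 0.269% ± 0.00767. The chaperone share is weighted toward Hspa9 and Hspd1, the members with the most counts in it. In the same way the protease share is weighted toward Lonp1 and Afg3l2, at 548 and 335 CPM in wild type. Clpx was at 71.8 CPM there and Clpp, which rose, at 20.8 CPM.

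Among the chaperones, Hspd1 had the largest change. It encodes Hsp60, which forms the double ring in which matrix proteins fold, and it lies on chromosome 1 (55077835 to 55088243, minus strand, mm10). Its level was 316, 347 and 343 CPM in wild-type replicates 1, 2 and 3 and 524, 626 and 589 CPM in KO replicates 1, 2 and 3. Every KO library was above every wild-type library by a wide gap. The mean went from 335 ± 16.8 to 579.8 ± 51.7 CPM (log2 0.79 ± 0.07 SE, adjusted p = 3.25e-05, edgeR). The processed pseudogene Hspd1-ps3, which can share reads with Hspd1, moved in step, with 54, 61 and 69 counts in wild type and 138, 132 and 159 in KO, or 0.709% of the counts of Hspd1.

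Hspe1 encodes Hsp10, the lid that closes the Hsp60 ring, and is transcribed from the next gene in the opposite direction (chromosome 1, 55088132 to 55091307, plus strand). It had 185, 164 and 138 CPM in wild type and 164, 173 and 155 CPM in KO. The KO libraries lay within the range of the wild-type libraries. The means were 163 ± 23.6 and 164 ± 9.03 CPM, with a log2 fold change of 0.014 (95% interval -0.19 to 0.22, adjusted p = 0.91, edgeR), which excludes a rise of the size seen for Hspd1. In wild type Hspe1 had the widest spread of the members, a coefficient of variation of 14.5%. Wild-type replicate 1 was the highest library for Hspe1, and it was also the highest wild-type library for some heat-inducible genes and the lowest for others, named here after their values were seen. Hspa1a, the inducible cytosolic Hsp70, was at 15.7 CPM there, 1.95 and 1.84 CPM in the other wild-type libraries and 4.51 to 4.90 CPM in KO. Dnajb1, a cytosolic Hsp40, was at 67.8, 53.8 and 54.1 CPM for wild type and 50.4 to 54.5 CPM for KO. Hsp90aa1, the inducible cytosolic Hsp90, was instead lowest there, at 271 CPM against 296 and 289 CPM, as were Fkbp4 and Ahsa1. Without that library the log2 fold change of Hspe1 was 0.12 (adjusted p = 0.116, edgeR) and that of Hspd1 0.75. The part of these differences in the Hspe1 value was not tested. The pseudogenes of Hspe1 listed in the table held at most 7 counts each over all libraries.

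Hspd1 and Hspe1 start close together on opposite strands, which is why a stretch of sequence between their starts is shown. In RefSeq, the Hspe1 start lies at position 55088148 and the Hspd1 starts lie 216 bases to one side and 95 bases to the other. In GENCODE the genes overlap by 112 bases on opposite strands. The bases below run 5′ to 3′ on the plus strand at chr1:55088053-55088082 (RefSeq, GRCm38.p6). They lie between the Hspe1 start and the Hspd1 start that is 216 bases away, within annotated untranslated exons. Use of this stretch as a promoter by either gene was not tested. Capitals mark a run of heat shock element cores, made of overlapping matches to TTCNNGAA and GAANNTTC, which starts 89 bases before the Hspe1 start.
Hspe1 and Hspd1: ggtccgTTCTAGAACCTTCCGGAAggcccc

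Motifs were searched on both strands in windows of 300 bases, from 250 before to 50 after each RefSeq start. Of the 10 members 8 were searched, in 9 windows. Hspa9 and Afg3l2 were left out of the search, so the presence of these motifs in them was not tested. TTCNNGAA was present in 8.51% of 32817 windows of all genes, and among the members in Hspd1, Hspe1 and Clpp. GAANNTTC was present in 7.86% of all windows and in Hspd1 and Hspe1. The windows of Hspd1 and Hspe1 overlap, so the run of heat shock element cores shown above is counted for both genes. The E-box CACGTG, which Myc and its relatives bind, was in 7.15% of all windows and in Hspd1 and Lonp1. The cyclic AMP response element TGACGTCA was in 1.79% and in Trap1. The composite element TTGCATCA, bound by ATF4 and CHOP with C/EBP partners, was in 0.896% and in 0 of the 8 members. CCAAT was in 37.4% and in Clpx, Dnaja3, Grpel1 and Hspd1. These are matches of letters, not measured binding. The promoters of Trap1, which rose, and Lonp1, which fell, are shown up to the start of annotated exons, each on its own strand. The stretches are chr16:4077828-4078060 (minus strand) for Trap1 and chr17:56626904-56627153 (minus strand) for Lonp1. Capitals mark the cyclic AMP response element of Trap1, 47 bases before its start, and the E-box of Lonp1, 36 bases before its start.
Trap1: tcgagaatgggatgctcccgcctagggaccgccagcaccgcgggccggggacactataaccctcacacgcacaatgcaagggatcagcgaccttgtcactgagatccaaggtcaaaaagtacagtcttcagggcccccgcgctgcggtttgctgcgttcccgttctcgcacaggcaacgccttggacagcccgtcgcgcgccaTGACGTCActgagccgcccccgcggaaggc
Lonp1: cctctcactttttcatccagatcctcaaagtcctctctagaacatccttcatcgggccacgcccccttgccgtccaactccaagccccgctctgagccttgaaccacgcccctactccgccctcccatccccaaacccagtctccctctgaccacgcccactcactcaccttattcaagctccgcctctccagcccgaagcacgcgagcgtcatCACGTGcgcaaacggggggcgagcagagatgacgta

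Hspa9 encodes mortalin, the Hsp70 of the matrix, which pulls proteins in through the import channel and helps them fold (chromosome 18, 34937414 to 34954357, minus strand). Its level was 759, 740.0 and 727 CPM in wild type and 795, 848 and 821 CPM in KO. The groups did not overlap, but the gap was small. The mean went from 742 ± 16.0 to 821 ± 26.7 CPM (log2 0.15 ± 0.04, adjusted p = 0.0144, edgeR), and the call was lost without wild-type replicate 3, KO replicate 2 or KO replicate 3 (adjusted p = 0.0553, 0.0749 and 0.0551).

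Grpel1 encodes the nucleotide exchange factor that resets mortalin (chromosome 5, 36464998 to 36474080, plus strand). It was at 53.7, 53.6 and 52.2 CPM in wild type and 58.4, 61.5 and 57.0 CPM in KO, again without overlap. Its log2 fold change was 0.15 ± 0.05 (adjusted p = 0.0326, edgeR), and it did not pass with DESeq2 (adjusted p = 0.079). It also did not pass with no filter (0.0761, edgeR) or without any one library other than wild-type replicate 1 (0.05005 to 0.136, edgeR). Dnaja3, the J-protein Tid1 that hands substrates to mortalin (chromosome 16, 4639989 to 4707695, plus strand), was at 87.2, 84.4 and 82.2 CPM in wild type and 80.4, 82.9 and 83.1 CPM in KO. These ranges overlapped, and the log2 fold change was -0.04 (95% interval -0.15 to 0.07, adjusted p = 0.49, edgeR). Dnaja3 overlaps Coro7, and Grpel1 overlaps Tada2b, each on the opposite strand, so without a known strand setting their reads may not be separated. The same limit holds for Hspd1 and Hspe1 where they overlap each other.

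Trap1 encodes the Hsp90 of mitochondria, which acts on respiratory and metabolic enzymes (chromosome 16, 4039971 to 4077827, minus strand). Its level was 121, 136 and 135 CPM in wild type and 168, 184 and 174 CPM in KO. All KO libraries were higher. The mean went from 131 ± 8.30 to 175 ± 8.10 CPM (log2 0.43 ± 0.06, adjusted p = 0.000261, edgeR). Wild-type replicate 1 was the lowest library for Hspd1, Trap1 and Clpp and the highest for Lonp1 and Afg3l2, and without it the log2 fold changes were 0.75, 0.37, 0.52, -0.35 and -0.56, all still called.

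**Figure D2:**
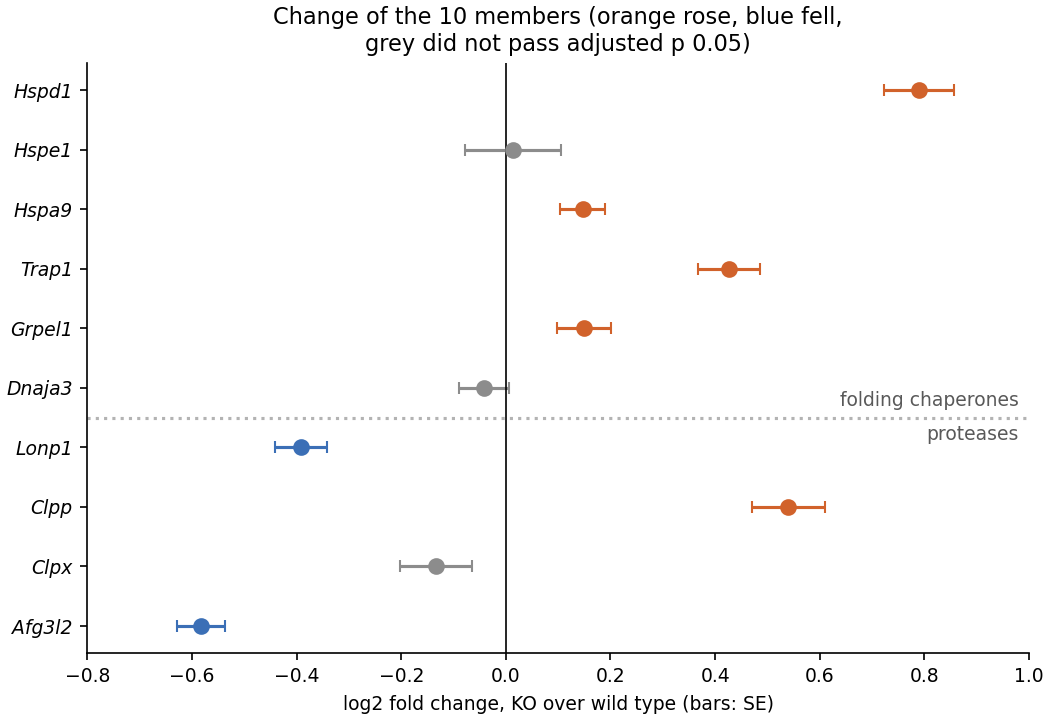
Log2 fold change of KO over wild type (x axis) of the 10 genes (y axis), chaperones above the dotted line and proteases below; points are edgeR estimates and bars their standard errors. Hspd1 lies at 0.79, Clpp at 0.54 and Trap1 at 0.43, while Lonp1 lies at -0.39 and Afg3l2 at -0.58.

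The proteases split. Clpp, the peptidase chamber of the matrix protease ClpXP, rose, and the ATP-driven unfoldase that feeds it, Clpx, did not pass. Clpp (chromosome 17, 56990305 to 56996188, plus strand) was at 20.1, 21.7 and 20.7 CPM in wild type and 30.2, 32.5 and 28.3 CPM in KO. The lowest KO library was well above the highest wild-type library. The mean went from 20.8 ± 0.780 to 30.3 ± 2.13 CPM (log2 0.54 ± 0.07, adjusted p = 0.000188, edgeR). Clpx (chromosome 9, 65294260 to 65330658, plus strand) was at 79.3, 68.7 and 67.5 CPM in wild type and 62.4, 65.8 and 68.0 CPM in KO. The ranges overlapped slightly, with wild-type replicate 1 above all other libraries. Its log2 fold change was -0.13 (95% interval -0.29 to 0.02, adjusted p = 0.126, edgeR), and -0.06 without that replicate.

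Lonp1 encodes the Lon protease, which degrades damaged and surplus matrix proteins and binds mitochondrial DNA (chromosome 17, 56614297 to 56626887, minus strand). It was at 579.9, 538 and 528 CPM in wild type and 433, 409.6 and 411 CPM in KO. No KO library reached the lowest wild-type library. The mean fell from 548 ± 27.6 to 418 ± 13.2 CPM (log2 -0.39 ± 0.05, adjusted p = 0.000167, edgeR). Lonp1 and Clpp lie 363417 bases apart on the same chromosome and moved in opposite directions.

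Afg3l2 encodes the main subunit of the m-AAA protease of the inner membrane, which removes unassembled membrane proteins and matures a mitochondrial ribosome protein (chromosome 18, 67404764 to 67449172, minus strand). Its level was 347, 328 and 330.4 CPM in wild type and 230.1, 218 and 224 CPM in KO. The spread within each group was small beside the gap between them. The mean fell from 335 ± 10.5 to 224 ± 6.12 CPM (log2 -0.58 ± 0.05, adjusted p = 2.67e-05, edgeR). Its partner and paralog genes went the other way. Spg7, paraplegin, which joins Afg3l2 in mixed rings, was at 65.3, 64.9 and 65.5 CPM in wild type and 72.0, 76.0 and 72.7 CPM in KO, a log2 fold change of 0.17 ± 0.05 (adjusted p = 0.0116, edgeR). Without KO replicate 2 the adjusted p of Spg7 was 0.0591. Afg3l1, a paralog that is active in mouse, was at 57.5, 68.1 and 64.2 CPM in wild type and 90.5, 96.8 and 95.5 CPM in KO, a log2 fold change of 0.57 ± 0.07 (adjusted p = 0.000110, edgeR).

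Within a library the ratio of counts of 2 genes does not depend on scaling, so partner genes were also compared as ratios. Of 9 ratios, 7 had KO libraries that did not overlap the wild-type libraries, as did 63.3% of all tested genes taken singly. The share over gene pairs in general was not computed, and some of the ratios share a gene. For Lonp1 to Clpp, Spg7 to Afg3l2 and Afg3l1 to Afg3l2 the lack of overlap was fixed in advance. In each of these pairs the genes had already separated in opposite directions, so these ratios add no separate evidence. For the 7 ratios the exact 2-sided permutation p was 0.1 (0.129 adjusted over the 9 ratios). A p of 0.1 is the smallest that 3 against 3 libraries can give, so this design cannot reach 0.05. The log2 ratio of Hspe1 to Hspd1 was -0.77, -1.08 and -1.31 in wild type and -1.68, -1.86 and -1.93 in KO. Every KO library had fewer Hspe1 counts per Hspd1 count than any wild-type library, a difference of -0.77 ± 0.17 (SE), or -0.62 without wild-type replicate 1. The ratio of Clpx to Clpp fell by 0.67 on the log2 scale (SE 0.13) without overlap, and that of Lonp1 to Clpp by 0.93 (SE 0.09). In the m-AAA protease, the ratio of Spg7 to Afg3l2 went from -2.36 ± 0.04 to -1.60 ± 0.08 (SD, n = 3 each) and that of Afg3l1 to Afg3l2 from -2.41 ± 0.17 to -1.25 ± 0.09.

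Ratios to Hspa9, and of its exchange factors to each other, differed by at most 0.28 in size. Grpel1 to Hspa9 was -3.80 ± 0.02 in wild type and -3.80 ± 0.04 in KO, with overlapping libraries (exact permutation p = 0.9). Dnaja3 to Hspa9 differed by -0.19 ± 0.02 and Trap1 to Hspa9 by 0.28 ± 0.07, both without overlap. The paralogous exchange factors Grpel2 and Grpel1 had a ratio of -1.09 ± 0.08 in wild type and -1.04 ± 0.02 in KO (exact permutation p = 0.4). Grpel2 itself rose (log2 0.20 ± 0.06, adjusted p = 0.0178, edgeR), and did not pass without wild-type replicate 2 or KO replicate 2 (adjusted p = 0.0715 and 0.0801).

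**Figure D3:**
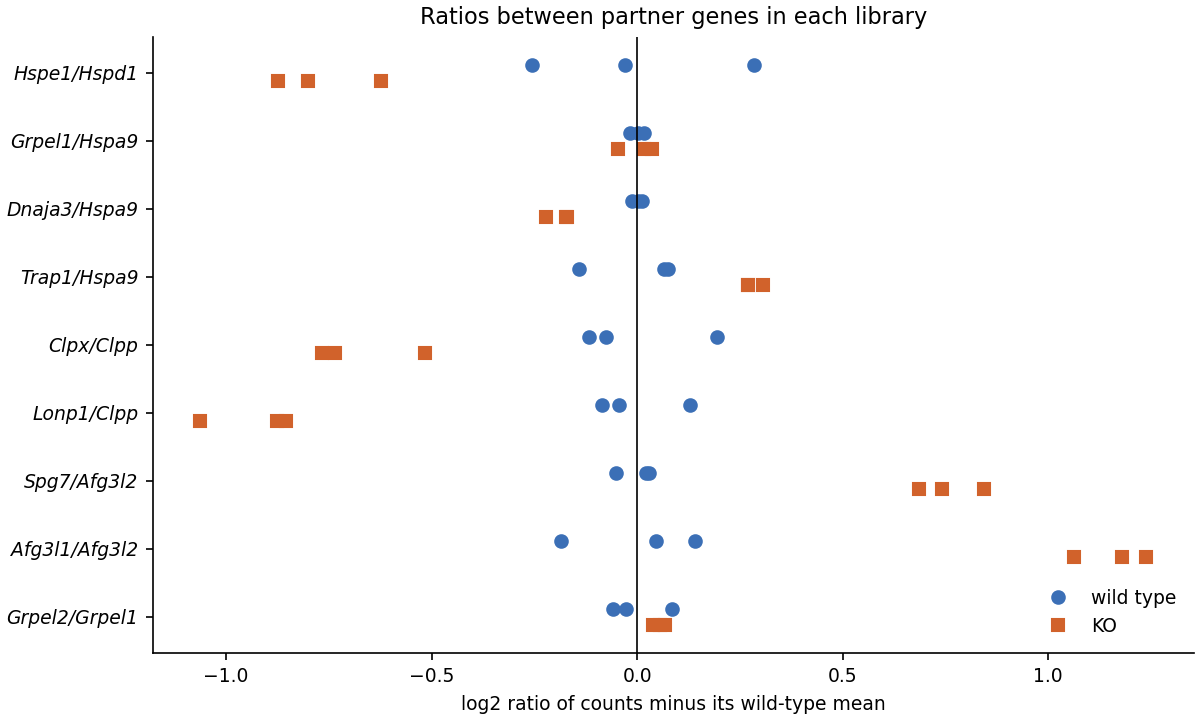
Log2 ratio of counts of partner genes minus the mean of that ratio in wild type (x axis) for 9 pairs (y axis); each point is a library, circles wild type and squares KO. The KO squares lie apart from the wild-type circles for 7 pairs, and overlap them for Grpel1/Hspa9 and Grpel2/Grpel1.

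Levels were compared between genes per kilobase of the principal transcript (RPKM). In wild type the order was Hspa9 (243 ± 5.25 RPKM), Hspe1 (210.0 ± 30.4), Lonp1 (186 ± 9.36), Hspd1 (138 ± 6.94), Afg3l2 (108 ± 3.39), Trap1 (56.3 ± 3.58), Dnaja3 (31.9 ± 0.944), Clpx (24.9 ± 2.24), Clpp (21.2 ± 0.793) and Grpel1 (15.1 ± 0.246; SD, n = 3). Of neighbours in that order, Hspa9 and Hspe1 overlapped between libraries, as did Hspe1 and Lonp1. In KO, Hspd1 stood second at 239 ± 21.3 RPKM, above Hspe1 (212 ± 11.7) with overlapping libraries and above Lonp1 (142 ± 4.46) without overlap. Clpp, at 30.9 ± 2.17 RPKM, stood above Clpx (22.7 ± 0.977). These levels depend on the length assigned to a gene. With all annotated exons as the length, Hspe1 was at 110.3 and Hspd1 at 127 RPKM in wild type and Afg3l2 at 34.0 RPKM, while Hspa9 was first and Grpel1 last by either length in wild type. The changes between genotypes do not depend on it.

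The other genes of mitochondrial folding and proteolysis mostly rose or did not pass. The counts of this and the following lists stand beside 26.7% higher and 26.1% lower of all tested genes. The lists were chosen with earlier results of these data known. Of 15 other mitochondrial chaperones and co-chaperones, 8 rose, 1 fell and 6 did not pass (median log2 0.18). Dnajc11, an outer membrane J-protein associated with cristae junctions, rose (log2 0.70 ± 0.07), and so did Dnlz, the factor that keeps mortalin soluble (log2 0.58 ± 0.08). The one that fell was Hscb, the J-protein for iron-sulfur cluster assembly (31.3 ± 1.90 to 22.6 ± 0.381 CPM, log2 -0.47 ± 0.06). Of 16 other mitochondrial proteases and peptidases, 10 rose, 1 fell and 5 did not pass (median 0.24). Pitrm1, which degrades cleaved presequences (log2 0.83 ± 0.07), and Parl, the rhomboid protease of the inner membrane (log2 0.62 ± 0.07), rose. Immp1l, an inner membrane peptidase subunit, fell (log2 -0.24 ± 0.09, adjusted p = 0.0369, edgeR), a call that was lost in 8 of 14 alternative fits.

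Of 20 tested genes of mitochondrial protein import, 13 rose and 0 fell by edgeR at an adjusted p under 0.05, with 7 not passing (median 0.39). Tomm40, the pore of the outer membrane, went from 49.3 ± 4.01 to 84.6 ± 4.40 CPM (log2 0.78 ± 0.07), Timm50, a receptor of the inner membrane translocase, had a log2 rise of 0.54 ± 0.06, and Timm9, a chaperone between the membranes, one of 0.58 ± 0.07. In that fit no import gene was lower at an unadjusted p under 0.05, and DESeq2 called none lower, but with the replicate number as a block edgeR called 14 higher and 1, Tomm7, lower. Dnajc19 is in both the import list and the list of other chaperones.

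The regulators of the mitochondrial and integrated stress responses were more often lower than higher. Of 16 genes, 8 fell, 3 rose and 5 did not pass (median -0.11), beside 26.1% lower and 26.7% higher of all tested genes. Ddit3, which encodes CHOP, was at 106, 89.7 and 83.5 CPM in wild type and 57.5, 53.7 and 53.0 CPM in KO, a log2 fold change of -0.77 ± 0.08 (adjusted p = 8.88e-05, edgeR). Atf5, the factor most tied to the mitochondrial response in mammals, was at 34.1, 34.4 and 32.0 CPM in wild type and 26.4, 25.7 and 25.7 CPM in KO, a log2 fold change of -0.37 ± 0.06 (adjusted p = 0.000480, edgeR). For both genes all KO libraries were below all wild-type libraries. Atf4 fell less, from 556 ± 34.1 to 503 ± 4.18 CPM (log2 -0.14 ± 0.05, adjusted p = 0.0317, edgeR). The falls of Cebpg and Atf3 were also small and near the threshold (adjusted p = 0.0480 and 0.0496, edgeR). Atf4, Cebpg and Atf3 were named after their values were seen. The genes that rose were Eif2ak2, the kinase PKR (log2 0.85 ± 0.08), Hsf1, the master factor of the heat shock response (log2 0.26 ± 0.05), and Ppp1r15b, a phosphatase subunit (log2 0.17 ± 0.06). With library totals as the scaling 4 of the 16 fell and 3 rose, and without single libraries 7 to 10 were called in all.

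Of 18 tested genes known as ATF4 targets, 13 rose, 2 fell and 3 did not pass (median 0.27). Phgdh, the first enzyme of serine synthesis, rose from 169 ± 10.7 to 259 ± 14.7 CPM (log2 0.62 ± 0.06). The 2 that fell were Vldlr, a lipoprotein receptor (log2 -1.32 ± 0.10), and Ddit4, an inhibitor of mTOR (807 ± 72.8 to 473 ± 24.5 CPM, log2 -0.77 ± 0.07), both also known to respond to low oxygen.

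**Figure D4:**
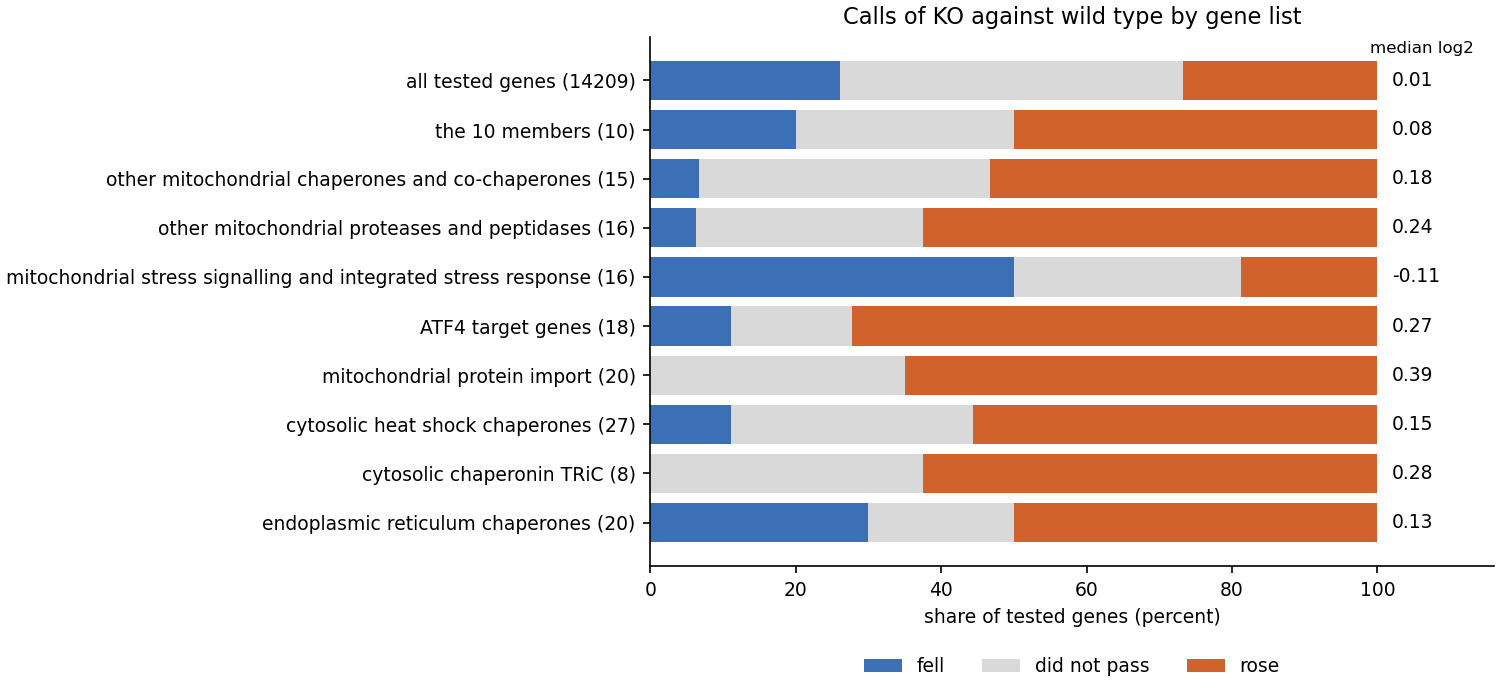
For each list (y axis, with its number of tested genes), bars give the percent of genes (x axis) lower in KO, not called and higher in KO by edgeR, and the median log2 fold change stands at the right. Of all tested genes 26.7% rose and 26.1% fell; import genes have 13 of 20 higher and 0 lower, and stress regulators 8 of 16 lower.

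Chaperones outside mitochondria were compared by the same counts. Of 27 cytosolic heat shock chaperones and cofactors, 15 rose, 3 fell and 9 did not pass (median 0.15, or 0.27 without wild-type replicate 1). Hsp90aa1 was at 271, 296 and 289 CPM in wild type and 449, 553 and 514 CPM in KO, a log2 fold change of 0.82 ± 0.07 (adjusted p = 3.54e-05, edgeR), with KO replicate 1 lowest and replicate 2 highest of the KO libraries, as for Hspd1 and Trap1. Hspbp1, an exchange factor of cytosolic Hsp70 (log2 0.85 ± 0.07), and Fkbp4, an Hsp90 partner (log2 0.83 ± 0.08), rose. Those that fell were Hspa4l (log2 -0.48 ± 0.06), Dnajb4 (log2 -0.75 ± 0.14) and Dnajb6 (log2 -0.34 ± 0.07), and wild-type replicate 1 was the highest library for each. Of the 8 subunits of TRiC, the cytosolic counterpart of the Hsp60 ring, 5 rose and 0 fell (median 0.28), also by DESeq2, among the risers Cct3 (log2 0.75 ± 0.07), Cct6a (log2 0.57 ± 0.06) and Cct8 (log2 0.36 ± 0.05). Tcp1, named after its value was seen, was lower at an unadjusted p under 0.05, and edgeR called it lower with no filter and without wild-type replicate 3. Of 20 endoplasmic reticulum chaperones, 10 rose and 6 fell, the other 4 not passing (median 0.13), and with library totals as the scaling 13 rose and 3 fell. Sdf2l1 (log2 0.77 ± 0.08) and Manf (log2 0.45 ± 0.06) rose, and P4hb, a subunit of protein disulfide isomerase and of collagen prolyl hydroxylase, fell from 984 ± 80.4 to 588 ± 18.8 CPM (log2 -0.74 ± 0.06). Myc, a transcription factor of cell growth, went from 166 ± 30.5 to 234 ± 12.9 CPM (log2 0.49 ± 0.11, adjusted p = 0.00397, edgeR).

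The members were finally described by their joint profile over the 6 libraries, the mean over the 10 genes of log2 CPM minus the gene's own mean. The profile ran from -0.09 in wild-type replicate 3 to 0.09 in KO replicate 2, and all wild-type libraries (-0.09 to -0.01) lay below all KO libraries (0.02 to 0.09). Of 8969 other tested genes at 10 CPM or more, those with the highest Pearson r to it were Psmd4 (0.991), Gabpb1 (0.990), Dcun1d5 (0.989), Cox7b (0.986) and Mlx (0.985). These are descriptions over 6 libraries that share their depth and genotype groups. The genes were picked as the highest of 8969, so r values this high do not show regulation in common, which was not tested. The log2 fold changes of these genes ran from 0.10 to 0.18. Psmd4, Dcun1d5 and Mlx did not pass (adjusted p = 0.0952, 0.0799 and 0.0671, edgeR). Among the members, Hspa9 followed the mean of the other 9 most closely (r = 0.957) and Grpel1 next (r = 0.935). Clpp (0.594), Trap1 (0.541), Hspe1 (0.339) and Hspd1 (0.222), the member that rose most, followed it less. Afg3l2 (r = -0.925), Lonp1 (-0.872), Clpx (-0.425) and Dnaja3 (-0.193) ran against it. Each r is taken against a different mean, since the gene itself is left out, and over libraries that differ by genotype. These values therefore restate the fold changes in part, and regulation in common was not tested.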

How the data were processed

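Polyadenylated RNA of cultured T cells was sequenced in 6 libraries, 3 wild type and 3 Drp1 KO, and group and replicate number came from the sample labels. The deposited file holds raw counts, with 1 row for each gene symbol. Per the submitters' processing notes, FastQC, STAR 2.5.2, HTSeq 0.6.1, DESeq2 1.12, Cufflinks and the mm10 genome were used, with no role or order stated. Strand setting, annotation release and treatment of multiply mapped reads: not given in the sources used here. Spreadsheet dates stood in place of symbols in 27 rows (0.241% of counts), which stayed in library totals.

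The main test was the quasi-likelihood F test of edgeR 4.0.16 (R 4.3.3) over all genes, with TMM factors (0.949 to 1.03), filterByExpr (14209 genes kept, 99.9% of counts), Benjamini-Hochberg adjustment over all of them, and 4 degrees of freedom left per gene. All adjusted p-values in the text come from it unless another tool is named, with 0.05 as the threshold. Ratios of partner genes were compared over libraries by exact permutation (scipy 1.17.1). Levels per length used the GENCODE M21 principal transcript, and promoters came from RefSeq (GRCm38.p6). Logs of CPM used a prior count of 2.

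The members and lists were chosen with earlier results of these data known. Named were all 10 members, Dnm1l, Myc, the sex-linked genes and, per list, the 3 genes with the smallest adjusted p, genes of the ratios, and genes against the list's direction where there were 3 or fewer. Other genes were named after their values were seen. Alternatives were DESeq2 size factors, upper quartile factors and library totals as scaling, DESeq2 1.42.0, limma-voom (limma 3.58.1), other filters, a replicate block, an adjusted p of 0.01 and leaving out each library. A different gene length was added after seeing the data.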

Additional observations from a re-analysis of the deposited data

How the results depend on the processing

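Of 140 fold changes of the members under 14 alternative fits, 127 kept their direction and side of the threshold, and 69 of 72 ratios kept their direction. With the replicate number as a block, 7900 genes were called in place of 7513, and 5 members rose and 2 fell as in the fit without it. Whether the numbers pair samples is not settled by these data. Same-numbered deviations correlated at 0.174, 0.126 and 0.011. For wild-type replicates 1 and 2 that was the highest of their correlations, while wild-type replicate 3 correlated best with KO replicate 2 (0.105). Other fits, and the threshold of 0.01, called 5369 to 7900 genes and 5 to 7 members. Among stress regulators 11 were called, against 7 with library totals as the scaling, 7 at an adjusted p under 0.01 and 7 to 10 without single libraries. The 0 import genes and 0 TRiC subunits called lower became 1 each, under the replicate block for the former and with no filter or without wild-type replicate 3 for the latter. Sign changes, none of which passed the test, were seen for Hspe1, at -0.10 without wild-type replicate 3 and -0.02 without KO replicate 2, with 0.12 the highest value without a library. Dnaja3 was at 0.034 with library totals, and the ratio of Grpel1 to Hspa9 ran from -0.014 to 0.027 without single libraries. With library totals the median log2 over all genes was 0.08 against 0.01 with TMM factors. The cause of these shifts was not tested. With 3 libraries a group, changes near the size of those of Hspa9 and Grpel1 were at the limit of what passed.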
